A study of Mus musculus with 36 samples.

Results

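Purkinje cells are the output neurons of the cerebellar cortex, and the 8 genes described here are typical of them: *Calb1*, *Itpr1*, *Car8*, *Slc1a6*, *Homer3*, *Rgs8*, *Ppp1r17* and *Pcp2*. The genes were chosen by name from what is known of the cell type, by a rule that used no counts but with earlier results of these data known, and all 8 were found among the 24421 genes listed for each tissue. RNA-seq libraries were made from both tissues, cerebellum and hippocampus, of 18 adult C57Bl/6 mice, with 6 mice per genotype, 3 of them male. Control mice were Pogzfl/fl and carried no Cre. *Pogz* cKO+/- mice were NesCre/+; Pogzfl/+ and *Pogz* cKO-/- mice NesCre/+; Pogzfl/fl, so that floxed *Pogz* was present in every group and the *Nestin*-driven Cre in the cKO mice alone. Cre driven by *Nestin* acts in neural progenitors, so the allele was lost from neurons and glia alike and not from Purkinje cells alone, and an effect of Cre itself cannot be told apart from an effect of the first allele lost. The questions put to the data were whether the Purkinje cell genes changed with *Pogz* dosage in the cerebellum, the tissue in which the study recorded Purkinje cell firing, and whether the same genes changed in the hippocampus, which has no Purkinje cells.

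A Purkinje cell receives glutamate from parallel and climbing fibers and inhibition from basket and stellate cells, and sends the only axon out of the cerebellar cortex. Glutamate acts in part through inositol trisphosphate, which releases calcium from internal stores through the inositol trisphosphate receptor. The cells are few beside the granule cells, yet large, and hold unusually high amounts of calcium buffers, calcium channels and glutamate carriers. In whole tissue, fewer Purkinje cells and less RNA per Purkinje cell cannot be told apart.

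By role, *Calb1* (calbindin, chr4:15881264-15906709, plus strand) buffers calcium, *Itpr1* (chr6:108213096-108551116, plus) is the calcium release channel of the stores, and *Car8* (chr4:8141493-8239041, minus) encodes a carbonic anhydrase-related protein that binds this channel. *Slc1a6* (EAAT4, chr10:78780496-78814825, plus) takes up glutamate beside the Purkinje cell synapses. *Homer3* (chr8:70282999-70294361, plus) is a postsynaptic scaffold that binds the inositol trisphosphate receptor, and *Rgs8* (chr1:153653037-153697665, plus) shortens signaling by G proteins. *Ppp1r17* (chr6:56017515-56032688, plus) encodes the G-substrate, a phosphatase inhibitor that is phosphorylated by the cGMP-dependent kinase, and *Pcp2* (L7, chr8:3623371-3625545, minus) a modulator of G proteins that is a classical marker of the cell. Positions are those in the count tables and overlap the RefSeq genes of GRCm38.p6. Some ends differ, most for *Slc1a6*, which starts at 78780496 in the count tables and at 78780086 in RefSeq. Exons of *Pcp2* overlap those of *Pet100* and exons of *Homer3* those of *Ddx49*, each on the opposite strand, so reads of these pairs could not be told apart. *Pet100* was listed at 13.5 to 33.97 CPM (counts scaled to the library total) and *Ddx49* at 17.1 to 21.2 CPM in the cerebellum, well under the level of either member there, whereas in the hippocampus *Pet100* stood at 11.46 to 62.7 CPM and *Pcp2*, outside 1 control library, at 0.89 CPM or less.

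Sequence upstream of a listed transcript start was held by the RefSeq table (GRCm38.p6) for 4 of the 8 genes, *Slc1a6*, *Homer3*, *Rgs8* and *Pcp2*. The 250 bases before the start are shown for *Slc1a6*, the only member called per *Pogz* allele lost in the cerebellum. The same is shown for *Homer3* and *Pcp2*, which did not pass the test. These windows were chosen since they differ in composition and in the letters searched. They are at chr10:78780246-78780495 (plus strand), chr8:70282749-70282998 (plus strand) and chr8:3625548-3625797 (minus strand). The RefSeq gene spans of *Slc1a6*, *Homer3* and *Rgs8* begin further upstream than these starts, at 78780086, 70282880 and 153652959. The *Slc1a6* window thus lies within the gene span, as do parts of the *Homer3* and *Rgs8* windows, while the *Pcp2* window lies outside it. Capitals mark matches on either strand to AGGTCA, the half-site bound by ROR nuclear receptors, and to CANNTG, the E-box, and the sequences read 5′ to 3′ on the gene's strand.
*Slc1a6*: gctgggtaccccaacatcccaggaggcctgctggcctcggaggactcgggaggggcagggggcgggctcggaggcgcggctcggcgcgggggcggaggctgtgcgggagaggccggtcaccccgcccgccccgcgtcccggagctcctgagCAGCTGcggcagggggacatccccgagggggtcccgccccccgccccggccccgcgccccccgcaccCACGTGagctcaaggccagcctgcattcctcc
*Homer3*: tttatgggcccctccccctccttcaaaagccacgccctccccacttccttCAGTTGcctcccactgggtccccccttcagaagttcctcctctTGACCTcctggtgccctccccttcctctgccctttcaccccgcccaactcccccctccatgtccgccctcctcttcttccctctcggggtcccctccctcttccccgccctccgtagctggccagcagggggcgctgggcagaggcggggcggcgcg
*Pcp2*: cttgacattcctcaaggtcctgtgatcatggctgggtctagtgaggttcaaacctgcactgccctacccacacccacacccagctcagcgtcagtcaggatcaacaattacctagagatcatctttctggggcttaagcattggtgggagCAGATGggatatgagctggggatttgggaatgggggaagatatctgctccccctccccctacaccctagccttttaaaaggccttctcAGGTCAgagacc
*Slc1a6* held CACGTG and CAGCTG and no AGGTCA, and 78.8% of its bases were G or C, above 98.3% of the windows of this length. *Pcp2* held AGGTCA from 12 to 7 bases before the start and 1 E-box, with 52.8% G or C against a median of 52.4%. *Homer3* held AGGTCA on the opposite strand, written TGACCT, and 1 E-box, with 68.0% G or C. *Rgs8*, from its most upstream listed start, held no match to either motif. Of 32817 windows, 14.0% held AGGTCA, 66.2% an E-box and 12.4% TATAAA, which no window of the 4 members held. The matches are a description of these letters and not of binding.

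Counts on genes came to 21421850 to 32544929 per cerebellar library and 17609321 to 45544188 per hippocampal library. *Pogz*, the gene targeted, fell per allele lost by 0.30 on the log2 scale in the cerebellum (SE 0.046, edgeR adjusted p = 0.000356) and by 0.28 in the hippocampus (SE 0.020, edgeR adjusted p = 1.79e-07), with counts taken over the whole gene and so also over exons that are not deleted. In 3 cerebellar libraries, of cKO+/- animals Sample_933 and Sample_1433 and cKO-/- animal Sample_936, the choroid plexus list of 5 genes summed to 2333 to 3141 CPM, against 11.2 to 65.6 CPM in the other 15. In 4 cerebellar libraries, of cKO+/- animal Sample_1433 and cKO-/- animals Sample_1371, Sample_1379 and Sample_1385, the granule cell list of 15 genes summed to 4922 to 6766 CPM, against 7781 CPM or more elsewhere. The hippocampal library of control animal Sample_1129 held cerebellar transcripts, as described with the hippocampus. Choroid plexus RNA also varied among hippocampal libraries. The list summed to 4865 CPM in control Sample_1129, 2356 in control Sample_1170, 1112 in cKO-/- Sample_1219 and 4924 in cKO-/- Sample_1385. The other hippocampal libraries ranged from 14.2 to 652 CPM. The hippocampal library of cKO-/- animal Sample_1160 stood apart and was left out of the hippocampal fits.

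Compared per exon length, the control level was highest for *Pcp2*, at 565 ± 90.2 RPKM (CPM per kilobase of exon, SD, n = 6), followed by *Calb1* at 484 ± 47.8, *Itpr1* at 477 ± 115 and *Car8* at 475 ± 62.2 RPKM. The differences among *Calb1*, *Itpr1* and *Car8* were smaller than the SD of each, and *Pcp2* lay above them by about its own SD. *Rgs8* followed at 331 ± 52.7 RPKM, *Ppp1r17* at 195 ± 20.1, *Homer3* at 152 ± 13.8 and *Slc1a6*, the lowest, at 122 ± 11.9 RPKM.

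**Figure D1:**
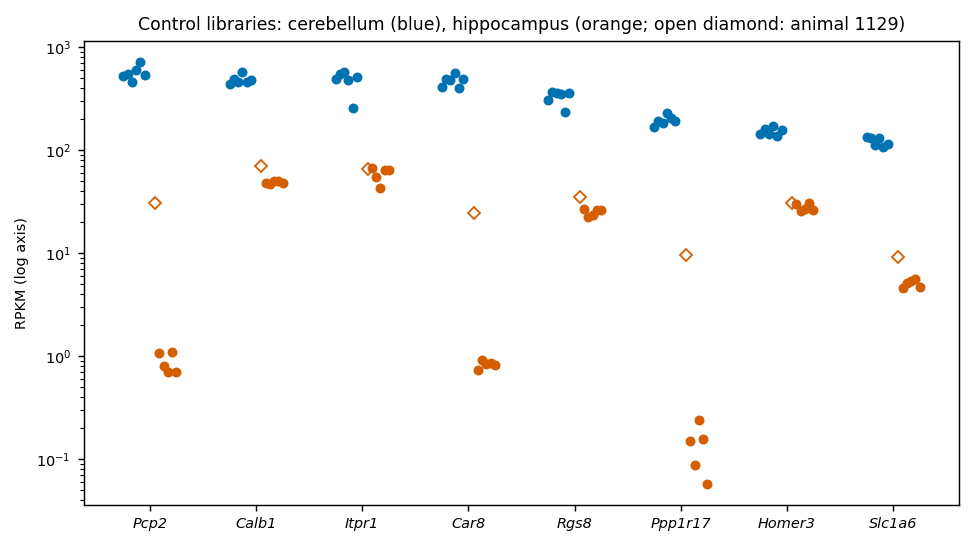
Level of the 8 genes per exon length in the control libraries of both tissues (RPKM, log axis). Each point is 1 library, with 6 per tissue; the open diamond is the hippocampal library of animal Sample_1129. Every cerebellar library lies above every hippocampal one for each gene.

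*Slc1a6*, the glutamate transporter, was the only member called in the cerebellum. Controls ranged from 224 to 278 CPM with a median of 258, cKO+/- from 205 to 308 with a median of 272, and cKO-/- from 267 to 422 with a median of 345. The 6 cKO-/- libraries read 267 (animal Sample_936), 298 (Sample_1219), 309 (Sample_1160), 381 (Sample_1385), 394 (Sample_1371) and 422 (Sample_1379) CPM, so that 5 lay above every control and the groups overlapped through animal Sample_936. Means rose from 255 ± 24.9 in controls through 268 ± 36.3 in cKO+/- to 345 ± 62.1 CPM in cKO-/- (SD, n = 6 each). *Slc1a6* rose by 0.22 log2 per allele lost (SE 0.055, 95% interval 0.10 to 0.33), a factor of 1.16, with an edgeR adjusted p of 0.0162. Of the genes tested, 13.7% (1916 of 14027) were called in this comparison, so that 1 of 8 members is near the share of all genes. The call was held with each of the 18 animals left out and with the 3 choroid plexus libraries left out (0.25 log2, edgeR adjusted p = 0.00488). It was lost with the 4 libraries low in granule cell RNA left out (0.11 log2, edgeR adjusted p = 0.146). Those libraries were all of cKO mice, and included the cKO-/- animals highest in *Slc1a6*, Sample_1371, Sample_1379 and Sample_1385. The call was also lost with a covariate that set apart animals numbered outside Sample_1120 through Sample_1219 (0.21 log2, edgeR adjusted p = 0.157). All 6 controls lay inside that range, with 4 cKO-/- and 3 cKO+/- animals outside it, so the covariate partly follows genotype. The adjusted p ranged from 0.00342 to 0.157 over all alternatives.

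*Itpr1*, the calcium release channel, had an estimate of 0.22 log2 per allele lost without passing the test. It ranged from 2509 to 5673 CPM in controls with a median of 4936, from 4325 to 7101 in cKO+/- with a median of 5249, and from 4420.4 to 9121 in cKO-/- with a median of 6191. The groups overlapped widely, and 1 control (animal Sample_1190) at 2509 CPM lay far under the next control at 4767 CPM. The estimate had an SE of 0.088 (95% interval 0.034 to 0.40, edgeR adjusted p = 0.1004). It was 0.16 without Sample_1190 (edgeR adjusted p = 0.183) and 0.14 without the cKO-/- animal Sample_1371 (edgeR adjusted p = 0.283).

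The other calcium genes did not pass the test either. *Calb1* ranged from 1254 to 1645 CPM in controls with a median of 1355, from 996 to 1686 in cKO+/- with a median of 1303, and from 967 to 2097 in cKO-/- with a median of 1595. *Car8* ranged from 2278 to 3248 CPM in controls with a median of 2790.0, from 1836 to 3409 in cKO+/- with a median of 2596, and from 1727 to 3968 in cKO-/- with a median of 2891. For both genes the cKO-/- libraries lay on either side of the controls. The estimates per allele lost were 0.098 for *Calb1* (95% interval -0.054 to 0.25, edgeR adjusted p = 0.382) and 0.060 for *Car8* (-0.10 to 0.22, edgeR adjusted p = 0.639). Leaving out 1 animal at a time moved *Calb1* between 0.025, without Sample_1371, and 0.144, without Sample_936.

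*Homer3* and *Rgs8*, a postsynaptic scaffold and a regulator of G protein signaling, did not pass the test. *Homer3* ranged from 334 to 423 CPM in controls with a median of 368, from 278 to 419 in cKO+/- with a median of 379, and from 278 to 509 in cKO-/- with a median of 395. *Rgs8* ranged from 1349.8 to 2153 CPM in controls with a median of 2065, from 1469 to 2431 in cKO+/- with a median of 1932, and from 1329.6 to 2803 in cKO-/- with a median of 2044. The cKO-/- range held the whole control range for both genes. The estimates per allele lost were 0.050 for *Homer3* (95% interval -0.077 to 0.18, edgeR adjusted p = 0.614) and 0.049 for *Rgs8* (-0.11 to 0.21, edgeR adjusted p = 0.703).

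*Ppp1r17* and *Pcp2*, which were close to absent from the hippocampus, had the smallest estimates. *Ppp1r17* ranged from 294 to 396 CPM in controls with a median of 333, from 219 to 345 in cKO+/- with a median of 300.2, and from 213 to 452 in cKO-/- with a median of 340.3. *Pcp2* ranged from 285 to 451 CPM in controls with a median of 337, from 254 to 346 in cKO+/- with a median of 314, and from 218 to 474 in cKO-/- with a median of 366. The groups overlapped for both. The estimates per allele lost were 0.0027 for *Ppp1r17* (95% interval -0.15 to 0.15, edgeR adjusted p = 0.983) and 0.0069 for *Pcp2* (-0.16 to 0.17, edgeR adjusted p = 0.962). Both intervals ended below the *Slc1a6* estimate but overlapped its interval of 0.10 to 0.33, and no difference between members was tested.

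**Figure D2:**
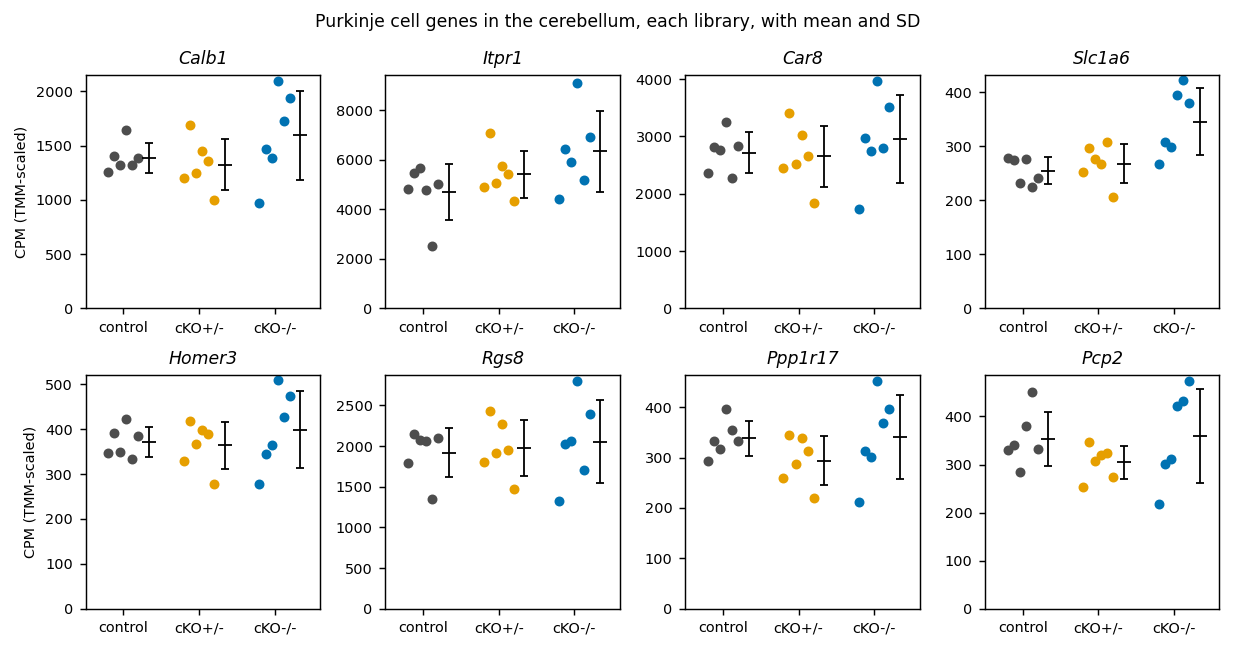
Cerebellar level of the 8 genes in each library (CPM after TMM scaling, axes from 0), with 6 libraries per genotype; bars give the mean and SD. *Slc1a6* rises from a mean of 255 CPM in controls to 345 CPM in cKO-/-, and for the other genes the genotypes overlap widely.

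All 8 estimates were above 0, with a median of 0.055 log2 against 0.00087 over all genes, but the members are not independent of each other, as described with their spread. In the direct comparison of cKO-/- with controls, 1 of 8 members was called, again *Slc1a6* (0.44 log2, SE 0.11, edgeR adjusted p = 0.0162), where 12.7% of all genes were. In cKO+/- against controls, no member was called by edgeR and none had an unadjusted p under 0.05, DESeq2 also called 0, and 0.342% of all genes were called. The *Slc1a6* estimate there was 0.070 log2 (SE 0.11, 95% interval -0.16 to 0.30). No member had all 6 cKO-/- libraries on one side of all 6 controls, a separation that 4.58% of all genes showed. Leaving out animal Sample_936 separated *Slc1a6*.

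The allele effect did not differ detectably between males and females. For the sex difference of the effect, edgeR called 0 members and 0 of 14027 genes, 0% of those tested. At an unadjusted p under 0.05 there were 0 members and 557 genes, and DESeq2 called 0 members. For *Slc1a6* the difference, male minus female, was -0.062 log2 (SE 0.11, 95% interval -0.30 to 0.17).

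The members rose and fell together from library to library, also within a genotype. Across the 18 cerebellar libraries the 28 pairs of members had a median Pearson r of 0.75, from 0.098 (*Pcp2* with *Itpr1*) to 0.957 (*Calb1* with *Homer3*), and 24 pairs were above 0.5. With the means of sex and genotype taken off, the median was 0.76 and again 24 pairs were above 0.5. The values share each library's dissection, depth and scaling, and are given as a description. Animal Sample_1371 (cKO-/-) had the highest mean over the members, 1.79 SD above the mean of all libraries, followed by Sample_1385 (cKO-/-) at 1.35 SD. The lowest were Sample_936 (cKO-/-) at -1.63 SD and Sample_1433 (cKO+/-) at -1.53 SD. The genotype with no intact allele thus held both the highest and the lowest library. The coefficient of variation was larger in cKO-/- (17.99% for *Slc1a6* to 27.2% for *Pcp2*) than in controls (9.08% for *Homer3* to 24.1% for *Itpr1*) for 8 of 8 members, a difference that was not tested. Since the members vary together, they are not separate observations, and the share of all genes with such a difference was not computed.

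The libraries at the extremes also differed in other cell types. Animals Sample_936 and Sample_1433, among the lowest, had 102 and 133 CPM of the midbrain and brainstem list against 19.6 to 27.3 CPM in controls, and the choroid plexus RNA given above. Animal Sample_1385, among the highest, had 139 CPM of the same list. Animals Sample_1371, Sample_1379 and Sample_1385 had the low granule cell sums, 5729, 6766 and 4922 CPM against 8486 to 9306 CPM in controls, and summed to 19767, 13081 and 16500 CPM over the members against 8820 to 13194 CPM in controls. The part of these differences in the levels of the members was not tested. With the 4 libraries low in granule cell RNA left out, the estimates of *Calb1*, *Car8*, *Homer3*, *Rgs8*, *Ppp1r17* and *Pcp2* lay under 0, at -0.048, -0.042, -0.0675, -0.015, -0.14 and -0.18 log2 per allele lost, and none passed the test, while those of *Slc1a6* and *Itpr1* stayed above 0, at 0.11 and 0.16 log2.

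**Figure D3:**
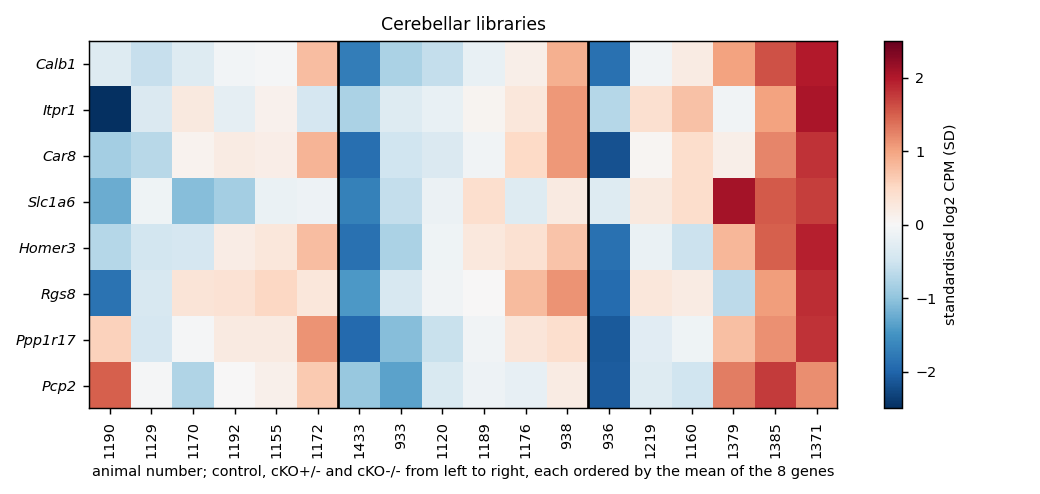
Standardised log2 CPM of the 8 genes (rows) in the 18 cerebellar libraries (columns), in units of the SD of each gene. Within each genotype libraries are ordered by the mean over the genes, from -1.63 SD (animal Sample_936) to 1.79 SD (animal Sample_1371) in cKO-/-. Most rows change color together, and *Slc1a6* and *Itpr1* depart from the others in several libraries.

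*Slc1a6* was also examined against the other members of the same library. Its log2 difference from the mean of the other 7 was 0.31 ± 0.21 higher in cKO-/- than in controls (SD, n = 6), with every cKO-/- library between 0.084 and 0.58 above the control mean, and 0.11 ± 0.13 higher in cKO+/-. Controls spread from -0.12 to 0.23 around their mean, so that the groups overlapped. *Itpr1* was 0.32 ± 0.21 higher in cKO-/- and 0.30 ± 0.083 higher in cKO+/-, while its controls spread from -0.76 to 0.38. *Ppp1r17* stood at -0.20 ± 0.060 in cKO-/- and -0.21 ± 0.054 in cKO+/-, with controls from -0.14 to 0.31. Each gene is set against the mean of the other 7, so a rise in *Slc1a6* or *Itpr1* lowers the value of the rest. Against controls, *Ppp1r17* itself changed by 0.0053 log2 in cKO-/- and by -0.21 log2 in cKO+/-. The differences use the same counts that led to the call of *Slc1a6*, and were not tested.

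Outside the members, the genes that followed their mean most closely were *Dner* (r = 0.977), *Inpp5a* (0.976), *Cep76* (0.975), *Stk17b* (0.973) and *Atl2* (0.971), out of 14019 genes with a median r of -0.033 over 18 libraries, of which 35 were above 0.9. *Dner* encodes a Notch ligand of the Purkinje cell surface and *Inpp5a* a phosphatase that removes inositol trisphosphate. None of the 5 was called, with estimates from 0.036 to 0.13 log2 per allele lost and edgeR adjusted p from 0.195 to 0.712.

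Other genes known from Purkinje cells were counted in the same way. Of 18 such genes, all tested, 1 was called higher and 0 lower, where 7.11% of all genes were called higher and 6.55% lower, with a median of 0.086 log2 per allele lost against 0.00087 over all genes. The gene called was *Foxp2*, a transcription factor of Purkinje cells and cerebellar nuclei, at 14.0 ± 1.99 CPM in controls, 16.8 ± 3.73 in cKO+/- and 21.2 ± 7.94 in cKO-/- (0.30 log2, SE 0.093, edgeR adjusted p = 0.0402).

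A list of 24 genes covered inositol trisphosphate signaling and the calcium stores, to which *Itpr1* and *Homer3* belong by function. In the cerebellum 1 was called higher and 1 lower, with a median of 0.051 log2. Over all genes 7.11% were called higher and 6.55% lower, so neither count is above the share of all genes. *Itpkb*, a kinase that removes inositol trisphosphate by phosphorylation, rose from 76.2 ± 11.4 CPM in controls to 94.7 ± 10.4 in cKO+/- and 106 ± 11.9 in cKO-/- (0.23 log2, SE 0.051, edgeR adjusted p = 0.00662). *Itpr3*, another inositol trisphosphate receptor, fell from 38.4 ± 9.23 CPM through 34.4 ± 6.21 to 23.7 ± 7.96 CPM (-0.35 log2, SE 0.11, edgeR adjusted p = 0.0333).

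Gene lists for other cells of the cerebellum were counted as well, where 7.11% of all genes were called higher and 6.55% lower. The interneuron list holds *Gad2* and *Slc32a1*, GABA genes that Purkinje cells express too, and both were among its called genes. Of 11 interneuron genes 4 were called higher and 0 lower (median 0.15 log2), among them *Gad2*, which makes GABA (0.25 log2, SE 0.060, edgeR adjusted p = 0.0121), and *Sorcs3*, a sorting receptor (0.22 log2, SE 0.060, edgeR adjusted p = 0.0220). Of 11 Bergmann glia and astrocyte genes 6 were called higher and 0 lower (median 0.15), led by *Aqp4*, the water channel of astrocytes (0.33 log2, SE 0.054, edgeR adjusted p = 0.000736), and *Fabp7*, a lipid-binding protein of glia (0.49 log2, SE 0.089, edgeR adjusted p = 0.00173). In this list 8 estimates were above 0, while *Gdf10*, *S100b* and *Slc1a3* lay under 0 without being called, at -0.14, -0.020 and -0.010 log2. The genes of the list thus did not all rise. Of 9 oligodendrocyte genes 3 were called higher (median 0.22), led by the myelin genes *Opalin* (0.52 log2, SE 0.11) and *Ermn* (0.33 log2, SE 0.084). Of 15 granule cell genes 1 was called lower and none higher (median -0.13), *Barhl1*, a transcription factor of the granule cell lineage (-0.29 log2, SE 0.056, edgeR adjusted p = 0.00315).

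Summed over each list, interneuron genes ranged from 1979.5 to 2795 CPM in controls and 2452 to 3447 CPM in cKO-/-, glial genes from 4167 to 5055 and 4766 to 6442 CPM, oligodendrocyte genes from 4110.0 to 6083 and 4464 to 9764 CPM, and granule cell genes from 8486 to 9306 and 4922 to 9763 CPM. All of these ranges overlapped. Lists for tissues outside the cerebellum were counted too, and where their RNA came from was not tested. Of 11 midbrain and brainstem genes, 5 could be tested and 1 was called higher, *Tph2*, the enzyme of serotonin neurons (0.65 log2, SE 0.12), at 0.78 ± 0.21 CPM in controls and 1.89 ± 0.55 in cKO-/-. Of 10 genes of hippocampal neurons, 6 could be tested and 3 were called higher, among them *Neurod6* (0.25 log2, SE 0.078), a transcription factor of forebrain neurons, with list sums of 83.7 to 123 CPM in controls and 117 to 128 CPM in cKO-/-. Of 5 choroid plexus genes 4 could be tested and 0 were called, with a median of 0.92 log2 and sums of 13.6 to 18.7 CPM in controls and 11.2 to 2997 CPM in cKO-/-. No gene of these lists was at 0 in all cerebellar libraries. With scores of the midbrain and brainstem list and the choroid plexus list as covariates, *Slc1a6* stayed called (0.25 log2, edgeR adjusted p = 0.0128).

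The hippocampal library of control animal Sample_1129 stood apart in the Purkinje cell genes. *Pcp2* was at 19.2 CPM there against 0.44 to 0.69 CPM in the other 5 controls, *Ppp1r17* at 16.9 against 0.10 to 0.41 CPM, and *Car8* at 140.4 against 4.19 to 5.30 CPM. *Calb1* was at 203 against 134 to 145 CPM, *Slc1a6* at 19.0 against 9.60 to 11.7 CPM and *Rgs8* at 203 against 129.5 to 157 CPM. Granule cell genes were raised too, *Gabra6*, a GABA receptor subunit, to 49.4 against 0.034 to 1.09 CPM and *Cbln3* to 71.5 against 0.32 to 1.68 CPM. Over the 17 Purkinje and granule cell genes that were more than 20-fold higher in this animal's cerebellum than in the other control hippocampi, the excess in Sample_1129 came to 3.10% to 7.01% of the animal's cerebellar level, with a median of 5.23%. Hippocampal estimates that rest on this library are therefore given with and without it.

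In controls, the 6 members that also passed the filter on low counts in the hippocampus were called higher in the cerebellum, a comparison in which 71.9% of all genes were called in either direction, and they remained so without the hippocampal library of animal Sample_1129. *Pcp2* and *Ppp1r17* entered this comparison through the cerebellar libraries, in which they were high, so their values are a description. *Ppp1r17*, *Pcp2* and *Car8* were low in the other hippocampal controls, at 0.24 ± 0.12, 0.55 ± 0.13 and 4.76 ± 0.40 CPM (SD, n = 5), and their log2 differences rose from 7.18, 6.89 and 7.31 with animal Sample_1129 to 10.29, 9.22 and 9.03 without it. The other 5 were expressed in both tissues. The log2 difference was 4.32 for *Slc1a6* (SE 0.15), 3.54 for *Rgs8* (SE 0.14), 3.12 for *Calb1* (SE 0.11), 2.90 for *Itpr1* (SE 0.19) and 2.32 for *Homer3* (SE 0.079), with edgeR adjusted p of 9.46e-09 or less for each. With the animal as a block, since each gave both tissues, the 6 were called again.

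No member was called per allele lost in the hippocampus, where 4.44% of genes (636 of 14339) were called. Of the 8 members, 6 passed the filter on low counts and *Pcp2* and *Ppp1r17* did not. At an unadjusted p under 0.05 there were 2 members, *Rgs8* (-0.17 log2, SE 0.054, edgeR adjusted p = 0.0851) and *Homer3* (-0.11 log2, SE 0.048, edgeR adjusted p = 0.222), and DESeq2 called 1, *Rgs8*. *Homer3* was at -0.089 log2 without the library of Sample_1129, with an unadjusted edgeR p of 0.0895 (adjusted p = 0.344). All 6 estimates were under 0, with a median of -0.10 log2 against 0.0017 over all genes. Without the library of animal Sample_1129 the median was -0.031 and 2 of the 6 estimates lay above 0. In cKO-/- against controls edgeR likewise called 0 of 6, 2 had an unadjusted p under 0.05, DESeq2 called *Rgs8*, and 4.87% of all genes were called. Without the library of Sample_1129 that contrast called 1 of the 6, *Car8*.

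*Rgs8* ranged in the hippocampus from 129.5 to 203 CPM in controls with a median of 153, from 102 to 134 in cKO+/- with a median of 121, and from 116 to 134 CPM in the 5 cKO-/- libraries. The highest control was animal Sample_1129, and without it the estimate was -0.12 log2 (SE 0.040, edgeR adjusted p = 0.127). The controls and the cKO-/- libraries overlapped.

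*Car8* reversed with the one library. The 6 hippocampal controls read 4.19, 4.66, 4.78, 4.89, 5.30 and, for animal Sample_1129, 140.4 CPM. The cKO+/- libraries ranged from 5.03 to 8.15 CPM with a median of 6.19, and the 5 cKO-/- libraries read 5.48, 7.27, 8.80, 9.31 and 11.0 CPM. With animal Sample_1129 the estimate was -0.54 log2 per allele lost (SE 0.41, edgeR adjusted p = 0.477), and without it 0.40 (SE 0.077, 95% interval 0.24 to 0.56), with an edgeR adjusted p of 0.00741, where 3.92% of all genes were called. In this fit, each of the remaining cKO-/- libraries lay above every remaining control; the excluded library of Sample_1160, at 4.80 CPM, did not. *Pcp2* and *Ppp1r17* were at 0.34 to 0.67 CPM and 0.11 to 0.30 CPM in these 5 cKO-/- libraries, within or near the range of the other controls. Those levels rest on 6 to 23 and 4 to 8 reads per library, and reads of *Pcp2* could not be told apart from those of *Pet100*. Where the *Car8* RNA came from was not tested. The choice to leave out Sample_1129 was made after its values were seen. Without Sample_1129, *Car8* was no longer called when the library of animal Sample_1160 was kept, in which it was at 4.80 CPM (0.34 log2, edgeR adjusted p = 0.104), or with the covariate for animal numbers (0.39 log2, edgeR adjusted p = 0.154), and DESeq2 called it (0.40 log2, adjusted p = 7.84e-05). Over all alternatives the adjusted p for *Car8* ranged from 7.84e-05 to 0.964.

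**Figure D4:**
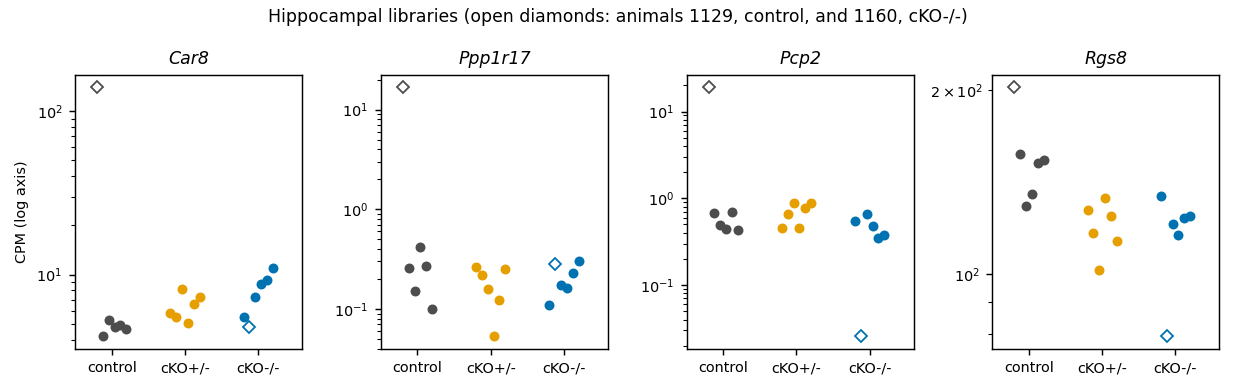
Hippocampal level of 4 of the genes in each library (CPM, log axes), with 6 libraries per genotype. Open diamonds mark control animal Sample_1129 and cKO-/- animal Sample_1160. *Car8* is at 4.19 to 5.30 CPM in 5 controls and at 140.4 CPM in animal Sample_1129, which also holds the highest *Ppp1r17*, *Pcp2* and *Rgs8*.

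*Calb1*, *Itpr1* and *Slc1a6* gave small hippocampal estimates with and without the library of animal Sample_1129. For *Slc1a6* the controls other than Sample_1129 ranged from 9.60 to 11.7 CPM, cKO+/- from 9.84 to 12.6 and the 5 cKO-/- libraries from 9.30 to 11.2 CPM, so that the groups overlapped. The estimate was -0.10 log2 per allele lost with Sample_1129 (95% interval -0.25 to 0.045) and -0.021 without it (95% interval -0.11 to 0.071), a range that does not reach the cerebellar estimate of 0.22. *Itpr1* went from -0.074 to -0.040 and *Calb1* from -0.0056 to 0.040, none of them called.

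**Figure D5:**
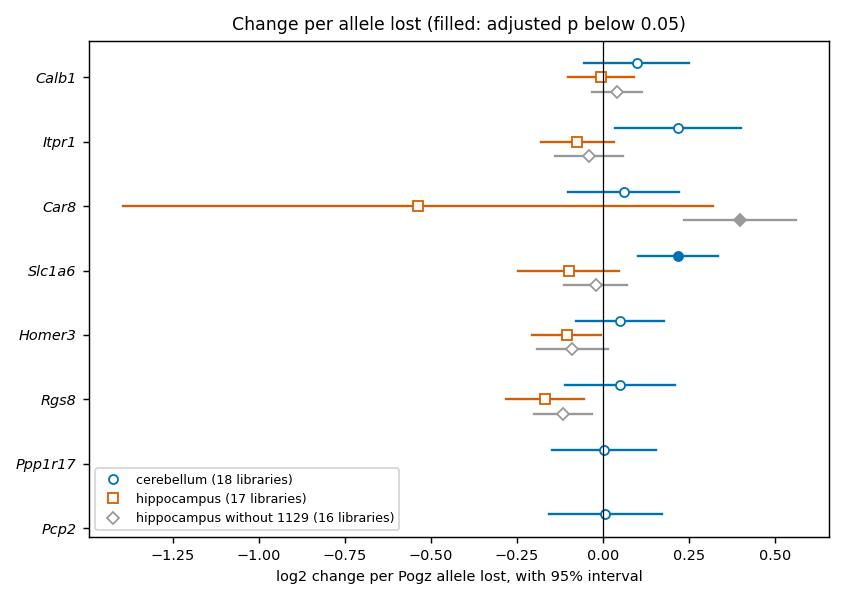
Log2 change per *Pogz* allele lost with its 95% interval for each gene, in the cerebellum (circles), the hippocampus (squares) and the hippocampus without the library of animal Sample_1129 (diamonds); filled symbols have an adjusted p below 0.05. *Slc1a6* is filled in the cerebellum, at 0.22, and *Car8* in the hippocampus without animal Sample_1129, at 0.40, while *Pcp2* and *Ppp1r17* were not tested in the hippocampus.

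The effect of an allele was compared between the tissues directly. One member passed the threshold, *Ppp1r17*, which entered the fit through the cerebellar libraries and was too low for the hippocampal filter, with a difference, cerebellum minus hippocampus, of 2.51 log2 (SE 0.65, edgeR adjusted p = 0.0357), where 1.63% of all genes were called. That value rested on the hippocampal library of animal Sample_1129 at 16.9 CPM: without it the difference was 0.24 log2 and no member was called. With the animal as a block, 0 members were called, and *Ppp1r17* was at 1.36 log2 (edgeR adjusted p = 0.342). For *Slc1a6* the difference was 0.33 log2 (SE 0.091, 95% interval 0.14 to 0.52, edgeR adjusted p = 0.0547), which missed the threshold, although DESeq2 called it in place of *Ppp1r17*, so that its change is not shown to be particular to the cerebellum. Both of these fits kept the hippocampal library of animal Sample_1129, with *Slc1a6* at 19.0 CPM against 9.60 to 11.7 CPM in the other controls. Without that library the hippocampal estimate of *Slc1a6* moved from -0.10 to -0.021 log2.

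The inositol trisphosphate and calcium store genes were counted in the hippocampus as well. Of 24 genes 0 were called higher and 2 lower, with a median of -0.060 log2, where 2.35% of all genes were called lower, and the same 2 were called without animal Sample_1129. One of them was *Ryr1*, a calcium release channel, which fell from 58.4 ± 10.8 CPM in controls through 44.4 ± 4.82 in cKO+/- to 30.6 ± 4.81 in cKO-/- (-0.46 log2, SE 0.062, edgeR adjusted p = 0.000222). *Ryr1* and *Clmn*, a gene of the Purkinje cell list, were named after their values were seen. Of the 18 other Purkinje cell genes, 13 could be tested in the hippocampus, and *Clmn* alone was called (-0.091 log2, SE 0.020, edgeR adjusted p = 0.0119). In the cerebellum *Ryr1* had an estimate of 0.0070 log2 (95% interval -0.20 to 0.21).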

How the data were processed

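RNA-seq libraries (poly(A), paired-end) from cerebellum and hippocampus of 18 mice were aligned and counted per gene with STAR by the authors, and the deposited tables hold raw counts and the exon length of each gene. The methods name mm9, but the deposited coordinates are those of GRCm38, and the strand setting is not given in the sources used here. Within a tissue each library is a separate animal, so replicates are biological, and no pair of libraries agreed within sampling noise. Genes with more than 1 CPM in at least 6 libraries were kept, scaled by TMM, and tested by the quasi-likelihood test of edgeR 4.0.16 (R 4.3.3) with sex and the number of alleles lost, or genotype, as terms. Calls were made at a Benjamini-Hochberg adjusted p (FDR) of 0.05 over all genes. Adjusted p-values labeled edgeR are from this fit. CPM use TMM-scaled totals, and RPKM divide CPM by the deposited exon length. The standardised levels use log2 CPM with a prior count of 2, and limma 3.58.1 removed group means.

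The study left out 1 unnamed outlying RNA sample. Here the hippocampal library of animal Sample_1160 was left out of hippocampal fits, as in earlier work on these tables. Hippocampal library Sample_1129 was kept in the main values and left out as an alternative chosen after seeing the data. The same holds for the cerebellar libraries with choroid plexus RNA or low granule cell RNA. The other alternatives were other scaling, no filter, DESeq2 1.42.0, other dispersions, no sex term, animal-number and tissue-score covariates, the animal as a block, and each animal left out. Animals pair the tissues, since each gave both: deviations from group means correlated between an animal's tissues with a median r of 0.22 (-0.15 to 0.43, 17 animals, 13587 genes). The scripts were tested on simulated data.

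The 8 genes and all lists were chosen with earlier results of these data known. Named beside the 8 genes and *Pogz* were up to 2 called genes per list and direction with the smallest adjusted p in the cerebellum, and the 5 genes closest to the mean of the 8. The glial genes with estimates under 0 were named after their values were seen. Some genes that this rule or the counts would name are not reported here.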

Additional observations from a re-analysis of the deposited data

Results flagged for a closer look

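Among 48 groups of 6 libraries, 9 held 1 library far from the others by Dixon's test (gap over range above 0.625), where chance gives about 1 in 20 groups. Of these, 5 came from the hippocampal library of control animal Sample_1129, the highest control for *Calb1* (203 CPM), *Pcp2* (19.2 CPM), *Car8* (140.4 CPM), *Slc1a6* (19.0 CPM) and *Ppp1r17* (16.9 CPM). The hippocampal library of cKO-/- animal Sample_1160 was the lowest of its group for *Itpr1* (222.9 CPM) and *Rgs8* (79.2 CPM) and the highest for *Slc1a6* (18.6 CPM). In the cerebellum, control animal Sample_1190 was the lowest for *Itpr1* (2509 CPM).

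The effect of an allele on *Ppp1r17* differed between the tissues by the test of the difference, at 2.51 log2, cerebellum minus hippocampus. The gene entered that fit through the cerebellar libraries. The difference was 0.24 log2 without the hippocampal library of animal Sample_1129, and 1.36 log2 with the animal as a block (edgeR adjusted p = 0.342), and was called in neither.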

How the results depend on the processing

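Of 562 estimates for single genes under alternatives, 509 kept direction and side of the threshold, 35 changed sign, 17 lost a call and 1 gained one with its sign kept. Hippocampal *Car8* without library Sample_1129 both changed sign and gained a call, in edgeR and in DESeq2. Counts of members called changed as follows, and the cause was not tested. The cerebellar count per allele, and that of cKO-/- against controls, went from 1 to 0 with the animal-number covariate and without the 4 libraries low in granule cell RNA. All genes called per allele went from 1916 to 308 and 503 there, and to 1069 with tissue scores, and in the hippocampus from 636 to 68 with the animal-number covariate, 246 with all 18 libraries and 1056 with DESeq2. The hippocampal counts, per allele and for cKO-/-, went from 0 to 1 with DESeq2 (*Rgs8*) and without library Sample_1129 (*Car8*, per allele also by DESeq2). The tissue difference of the effect went from 1 to 2 without the sex term, and to 0 with the animal-number covariate, with the animal as replicate block, without library Sample_1129, and with both of the latter. With the replicate block, 354 genes were called against 243. The tissue comparison in controls went from 8 to 5 in DESeq2, which gave no adjusted p for the other 3, and stayed at 8 with the block (*Pcp2* and *Ppp1r17* entered through the cerebellar libraries). In the cerebellum, sign changes were -0.015 for *Pcp2* (animal numbers) and -0.0033 for *Ppp1r17* (no filter), and, without the low granule cell libraries, -0.048 for *Calb1*, -0.18 for *Pcp2*, -0.042 for *Car8*, -0.14 for *Ppp1r17*, -0.015 for *Rgs8* and -0.0675 for *Homer3*. In the hippocampus, *Calb1* was at 0.019 with all 18 libraries, and without library Sample_1129 at 0.040, then 0.065 with Sample_1160 kept, 0.024 with animal numbers and 0.039 in DESeq2. *Car8* was at 0.40, 0.34, 0.39 and 0.40 in those fits, and *Slc1a6* at 0.063 with Sample_1160 kept and 0.0075 with animal numbers. Leaving out each animal in turn gave ranges of -0.034 to 0.040 (*Calb1*) and -0.66 to 0.40 (*Car8*) in the hippocampus, and of -0.016 to 0.11 (*Car8*), -0.0061 to 0.087 (*Homer3*), -0.040 to 0.067 (*Pcp2*), -0.070 to 0.046 (*Ppp1r17*) and -0.019 to 0.094 (*Rgs8*) in the cerebellum. Counts then ranged from 0 to 1 for both hippocampal comparisons (animal Sample_1129 for *Car8*, and Sample_936, Sample_1170 and Sample_1172 for *Rgs8* in cKO-/-) and for separated members (animal Sample_936), 0 to 2 for the tissue difference and 6 to 8 for the controls. Low counts limit *Pcp2* and *Ppp1r17* in the hippocampus.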
